A study of Homo sapiens with 4 samples.

Results

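The 37 genes of human mitochondrial DNA were followed in T24 cells, an established line from a human bladder carcinoma, after overexpression of the microRNA miR-146a-5p. They were taken as every gene of the deposited table whose name begins with MT-, which gave 37 of 60623 genes, made up of 13 protein genes, 2 ribosomal RNAs (rRNAs) and 22 transfer RNAs (tRNAs). The groups were T24 cells with miR-146a-5p overexpression (2 libraries) and T24 cells with a scramble control (2 libraries). The study's description calls the agent a transfected mimic, while the sample labels give only overexpression. Whether libraries of the same group stem from different cultures is not stated, and the p-values below therefore reflect library-to-library spread that could be purely technical. Trizol was used to extract the RNA, of which 1 ug went into a TruSeq RNA kit. Neither a selection of polyadenylated RNA nor the keeping of strand is stated in the sources used here.

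Mitochondrial DNA is a small circle held in many copies per cell, and its genes have no introns. It is transcribed from both strands as long precursors by the polymerase POLRMT, and the tRNAs that lie between most genes mark where the precursors are cut into single RNAs. The protein products are core subunits of the respiratory chain and of ATP synthase, the rRNAs build the mitochondrial ribosome, and nuclear genes supply everything else. 
Each library held between 20290055 and 22774090 estimated counts, and values below are counts scaled to that total (CPM, the share of the total in parts of 1e6) unless TPM is named. IRAK1, a textbook target of this microRNA, had 108 and 109 CPM in the miR-146a-5p libraries, against 498 and 716 CPM in the scramble libraries. Scramble replicate 2 stood apart, with Pearson correlations of 0.925 to 0.942 with the other libraries across tested genes, where the other 3 libraries were correlated at 0.979 to 0.989. Of 6 epithelial markers, the keratins KRT7, KRT8 and KRT18 were high in every library, while CDH1 had at most 2 counts. EPCAM was low, at 1.49 and 1.48 CPM with miR-146a-5p and 0.849 and 0.878 CPM with scramble. The keratin KRT19 was at 15.8 and 14.5 CPM with miR-146a-5p and 31.8 and 42.5 CPM with scramble. Of 12 urothelial markers 3 were tested, FOXA1, PPARG and GATA3. FOXA1 was at 25.8 and 26.1 CPM with miR-146a-5p and 31.9 and 39.4 CPM with scramble. PPARG was at 28.5 and 28.3 CPM with miR-146a-5p and 40.8 and 45.4 CPM with scramble. GATA3 had few counts and went the other way, at 0.511 and 1.23 CPM with miR-146a-5p and 0.268 and 0.220 CPM with scramble. GRHL3, KRT5 and UPK3A had 0 counts in every library. The 12 summed to 54.9 and 55.8 CPM with miR-146a-5p, against 73.1 and 85.3 CPM with scramble. This sum was thus lower in both miR-146a-5p libraries. So were the CPM sums of the mitochondrial protein genes and rRNAs below, though not that of the tRNAs. The part of the marker sum in them was not tested. Fibroblast, leukocyte and endothelial markers, 22 genes in all, summed in each list to between 0.179 and 6.90 CPM per library.

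The sequences below show the microRNA and the places where mitochondrial genes share bases with each other or with nuclear copies, since shared bases decide how reads can be assigned. The first is mature miR-146a-5p from RefSeq (GRCh38, chr5:160485372-160485393, plus strand), with its seed, bases 2 to 8, in capitals. The second is the stretch where MT-ATP8 and MT-ATP6 overlap (GRCh38, chrM:8527-8572, plus strand), with the start codon of MT-ATP6 and the stop codon of MT-ATP8 in capitals. The third spans the end of MT-ND4L and the start of MT-ND4 (chrM:10750-10776, plus strand), with the 7 shared bases in capitals. The last 2 set a stretch of MT-ATP6 (chrM:8642-8701) beside the same stretch of its nuclear copy MTATP6P1 (chr1:633811-633870), with the bases that differ in capitals.
miR-146a-5p: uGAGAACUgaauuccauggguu
MT-ATP8 and MT-ATP6 overlap: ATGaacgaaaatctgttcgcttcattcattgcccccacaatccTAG
MT-ND4L and MT-ND4 overlap: acctactccaATGCTAAaactaatcgt
MT-ATP6: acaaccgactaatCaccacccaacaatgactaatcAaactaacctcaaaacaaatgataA
MTATP6P1: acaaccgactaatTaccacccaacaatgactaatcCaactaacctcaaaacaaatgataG

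As a whole, RNA from mitochondrial DNA took a smaller part of the miR-146a-5p libraries. The 37 genes held 3.36% and 3.33% of counts in the miR-146a-5p libraries, against 4.01% and 4.33% in the scramble libraries. The 13 protein genes summed to 30458 and 29574 CPM with miR-146a-5p, against 36041 and 39457 CPM with scramble. Both miR-146a-5p libraries thus lay below both scramble libraries, and the group mean was 20.5% lower, a log2 ratio of -0.33. CPM is a share of the library total, so less mitochondrial RNA and more of other RNA cannot be told apart. In bulk RNA of a single line, a different mix of its cells and a change in RNA per cell cannot be told apart either. The exact two-sided permutation p was 0.333, the smallest that 2 libraries against 2 can give. The log2 ratio of the sum was -0.26 when only scramble replicate 1 was the control and -0.39 with only replicate 2.

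The rRNAs differed less. They summed to 3186 and 3693 CPM in the miR-146a-5p libraries, against 4085 and 3865 CPM in the scramble libraries. In CPM the groups did not overlap, with a log2 ratio of -0.21 (exact permutation p = 0.333), though in TPM they did, as given below. The gap in CPM between the nearest libraries was smaller than the gap between the 2 miR-146a-5p libraries. For every 100 counts of protein genes there were 10.5 and 12.5 rRNA counts with miR-146a-5p and 11.3 and 9.80 with scramble, and here the groups overlapped.

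**Figure D1:**
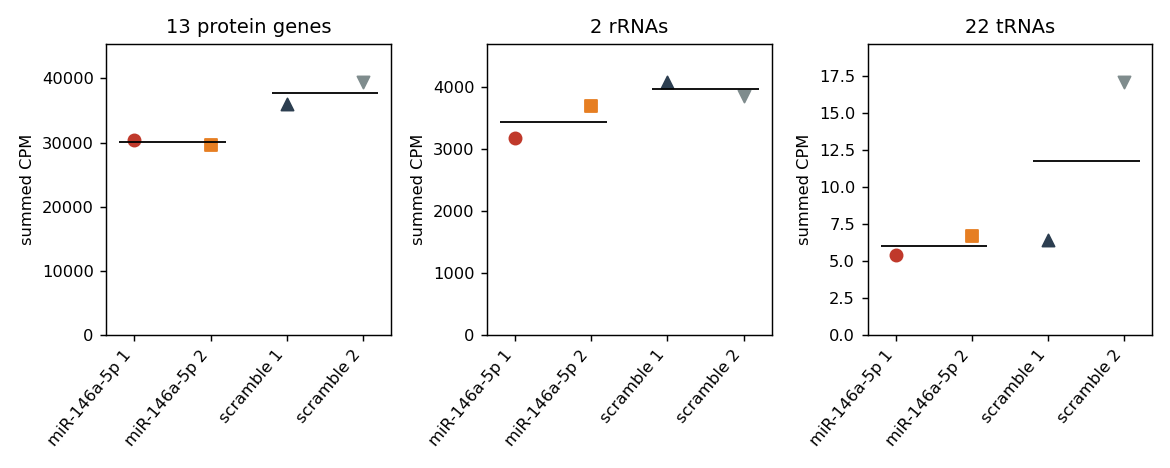
Summed CPM of the 13 protein genes, the 2 rRNAs and the 22 tRNAs in each library (points), with group means as lines and axes from 0. The protein sum was 30458 and 29574 CPM with miR-146a-5p, below 36041 and 39457 CPM with scramble, while the tRNA sum of scramble replicate 2, 17.1 CPM, stood above the 5.38 to 6.67 CPM of the other 3 libraries.

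Gene by gene, 12 of the 13 protein genes were lower in both miR-146a-5p libraries than in both scramble libraries, a pattern that 18.0% of all 14810 tested genes showed, and MT-CYB was the exception. By edgeR's quasi-likelihood fit 0 of the 13 passed an adjusted p of 0.05 (adjusted p of 0.9703 to 0.972). Over all tested genes 0% passed, and 549 had an unadjusted p under 0.05. Even IRAK1 was not called by edgeR, at an adjusted p of 0.728, the smallest over all tested genes, where DESeq2 gave 5.03e-09. The absence of edgeR calls is therefore little information about the mitochondrial genes. DESeq2 called 0 of the 13 (all at an adjusted p of 1.00), against 0.324% of the genes it tested, 0.0499% lower. With the replicate number as a block, edgeR again called 0 of the 13, against 0.0338% of all tested genes. The authors' deposited table likewise marks 0 of the 37 as significant, but it lists the 21 tRNAs other than MT-TS1 as not tested. Over all 60623 genes it marks 52, with 34811 not tested. The median log2 fold change of the 13 was -0.35, against -0.0014 over all tested genes. Unadjusted edgeR p-values were under 0.05 for 5 of the 13, all lower with miR-146a-5p, where 1.65% of all tested genes were lower with such a p. The members share precursors and a library, so their counts are not 13 separate observations.

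Without scramble replicate 2, edgeR called 6 of the 13 lower (MT-ATP6, MT-CO1, MT-CO3, MT-ND3, MT-ND5 and MT-ND6) and 11.7% of all tested genes lower. Without scramble replicate 1 it called 11 of the 13 lower, all but MT-CYB and MT-ND4, and 26.4% of all tested genes lower. In those fits higher calls made up 10.1% and 28.5% of tested genes, and the lone scramble library was taken to have the same variability as the other group. Without miR-146a-5p replicate 1, 0 of the 13 were called, with 0.0323% of tested genes lower and 0.0453% higher. Without miR-146a-5p replicate 2, 0 of the 13 were called, with 0.0129% of tested genes lower and 0.0388% higher.

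**Figure D2:**
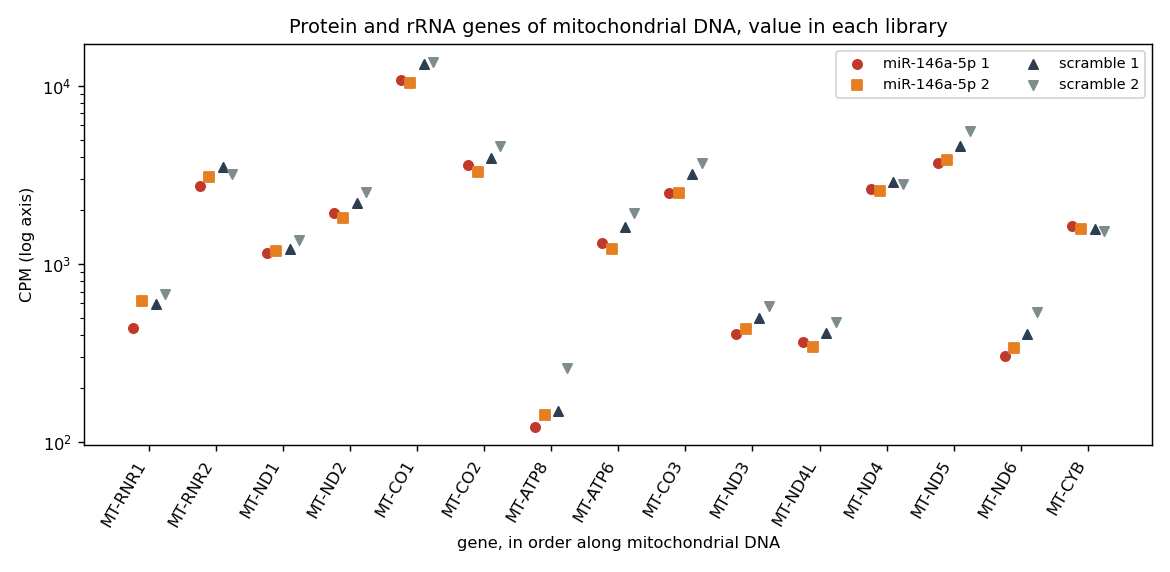
CPM (log axis) of the 13 protein genes and 2 rRNAs in each of the 4 libraries, in their order along mitochondrial DNA. Both miR-146a-5p libraries lie below both scramble libraries for 12 of the 13 protein genes, while for MT-CYB all 4 libraries lie between 1524 and 1624 CPM.

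Cytochrome c oxidase, complex IV, passes electrons to oxygen, and its catalytic core MT-CO1, MT-CO2 and MT-CO3 is mitochondrially encoded. MT-CO1 (ENSG00000198804, chrM:5904-7445), which carries the haem-copper site where oxygen is reduced, was 2nd of all genes by mean CPM. It had 10823 and 10340 CPM in the miR-146a-5p libraries, against 13353 and 13584 CPM in the scramble libraries. The gap between groups, 21.4% of the scramble mean, was wider than the gap within either pair, and the log2 fold change was -0.35 ± 0.10 (SE; edgeR adjusted p = 0.9703, unadjusted p = 0.0226). It was also nearly the same against each scramble library alone, at -0.34 and -0.36.

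MT-CO2, which takes electrons from cytochrome c, had 3595 and 3300 CPM with miR-146a-5p, against 3962 and 4574 CPM with scramble. Its log2 fold change was -0.31 ± 0.14 (SE), and the spread between the scramble libraries was wider than the step down to the nearest miR-146a-5p library. MT-CO3 had 2510 and 2509 CPM with miR-146a-5p, against 3182 and 3668 CPM with scramble. The miR-146a-5p libraries were alike to within 1 CPM there, and the log2 fold change was -0.45 ± 0.13 (SE; edgeR adjusted p = 0.9703, unadjusted p = 0.0238). The 3 genes together summed to 16928 and 16148 CPM with miR-146a-5p, against 20497 and 21825 CPM with scramble, a log2 ratio of -0.36.

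ATP synthase, complex V, has 2 mitochondrially encoded subunits in its membrane part, MT-ATP6, which forms the proton path with the rotor, and the small MT-ATP8. MT-ATP6 (ENSG00000198899, chrM:8527-9207) had 1306 and 1215 CPM in the miR-146a-5p libraries, against 1620 and 1944 CPM in the scramble libraries. It was 29.3% lower on the group means, with a log2 fold change of -0.50 ± 0.15 (SE; edgeR adjusted p = 0.9703, unadjusted p = 0.0291). MT-ATP8 (ENSG00000228253, chrM:8366-8572) had 121 and 142 CPM with miR-146a-5p, against 148 and 260 CPM with scramble. Its group difference therefore rested on scramble replicate 2: the log2 ratio was -0.17 to scramble replicate 1 and -0.98 to scramble replicate 2.

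MT-ATP8 is 207 bases long and shares the 46 bases printed above with MT-ATP6. In the authors' TPM (abundance per length, scaled to a common total) it had 15898 and 18072 TPM in the miR-146a-5p libraries, against 20984 and 20891 TPM in the scramble libraries, so that its scramble libraries differed by 0.81 in log2 CPM and by -0.01 in log2 TPM (replicate 2 over replicate 1). The number of counts behind 1 TPM of MT-ATP8, as a percentage of that number for MT-CO1, was 0.638% and 0.663% with miR-146a-5p and 0.615% and 0.9696% with scramble. The conversion of counts to TPM for this short gene thus differed in scramble replicate 2 from the other 3 libraries, and its part in the group difference was not tested.

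Complex I, the entry point for electrons from NADH, has 7 mitochondrially encoded subunits, all in its membrane arm. The 7 summed to 10479 and 10495 CPM in the miR-146a-5p libraries, against 12202 and 13904 CPM in the scramble libraries. MT-ND5, a proton-pumping subunit far out on the arm and 4th of all genes by mean CPM, had 3682 and 3832 CPM with miR-146a-5p, against 4571 and 5610 CPM with scramble (log2 fold change -0.44 ± 0.15 SE, edgeR adjusted p = 0.9703, unadjusted p = 0.0371). The other pumping subunits of that arm stepped down less. MT-ND2 had 1931 and 1809 CPM with miR-146a-5p, against 2201 and 2528 CPM with scramble, a log2 fold change of -0.34 ± 0.14 (SE). MT-ND4 had 2649 and 2554 CPM with miR-146a-5p, against 2901 and 2820 CPM with scramble, and was 9.04% lower on the means.

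The smaller subunits near the hinge of complex I had the same order of groups. MT-ND1, which lines the quinone site, had 1147 and 1189 CPM with miR-146a-5p, against 1216 and 1357 CPM with scramble. Its nearest libraries of the 2 groups were closer than its scramble pair, and the log2 fold change was -0.14 ± 0.13 (SE). MT-ND3 had 404 and 430 CPM with miR-146a-5p, against 497 and 580 CPM with scramble. MT-ND4L, which shares 7 bases with MT-ND4 as printed above, had 363 and 343 CPM with miR-146a-5p, against 410 and 472 CPM with scramble. The log2 fold changes of MT-ND3 and MT-ND4L were -0.37 ± 0.16 and -0.32 ± 0.16 (SE). Their counts per TPM stood apart in scramble replicate 2, as given above.

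MT-ND6 (ENSG00000198695, chrM:14149-14673, minus strand) is the only protein gene read from the other strand, that is from the light-strand promoter. It had 302 and 338 CPM in the miR-146a-5p libraries, against 406 and 535 CPM in the scramble libraries. The log2 fold change was -0.56 ± 0.20 (SE; edgeR adjusted p = 0.9703, unadjusted p = 0.0473), and it was -0.34 to scramble replicate 1 and -0.74 to scramble replicate 2. As a share of the counts of the 12 heavy-strand protein genes MT-ND6 stood at 1.00% and 1.16% with miR-146a-5p and at 1.14% and 1.37% with scramble. These shares overlapped between the groups. Against MT-ND5 alone, a heavy-strand gene, MT-ND6 stood at 8.21% and 8.83% of its counts with miR-146a-5p, against 8.89% and 9.54% with scramble, which did not overlap (exact permutation p = 0.333, the smallest possible). Whether strand was kept in counting is not stated, and without it reads of the opposite precursor over this gene cannot be told apart from MT-ND6 itself.

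MT-CYB (ENSG00000198727, chrM:14747-15887), the cytochrome b that carries electrons across the membrane in complex III, did not share the lower level. It had 1624 and 1574 CPM in the miR-146a-5p libraries, against 1574 and 1524 CPM in the scramble libraries. The groups overlapped, and the log2 fold change was 0.04 ± 0.12 (SE; edgeR adjusted p = 0.972). As a share of the counts of the 13 protein genes it stood at 5.33% and 5.32% with miR-146a-5p, against 4.37% and 3.86% with scramble (exact permutation p = 0.333, the smallest possible). For every 100 counts of MT-ND5, the heavy-strand gene that precedes it, there were 44.1 and 41.1 counts of MT-CYB with miR-146a-5p, against 34.4 and 27.2 with scramble.

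Shares of a fixed total are not independent, since a higher share of some genes lowers that of others. With that limit, MT-ND1 and MT-ND4 also held higher shares of the 13 in both miR-146a-5p libraries, 3.77% and 4.02% against 3.37% and 3.44% for MT-ND1, and 8.70% and 8.64% against 8.05% and 7.15% for MT-ND4. The shares of MT-ATP6 and MT-CO3 were lower in both miR-146a-5p libraries, 4.29% and 4.11% against 4.50% and 4.93% for MT-ATP6, and 8.24% and 8.48% against 8.83% and 9.30% for MT-CO3. For the other 8 genes the shares of the groups overlapped. MT-CO1 was among them, at 35.5% and 35.0% with miR-146a-5p and 37.05% and 34.4% with scramble. Each share without overlap had an exact permutation p of 0.333, the smallest possible. In CPM, 18.0% of all tested genes were lower in both miR-146a-5p libraries than in both scramble libraries, and 18.0% were higher in both. Separation of the groups in CPM was thus common, and by itself it does not set a gene apart from the rest. Shares of the 13 are another scale, for which no such background was computed.

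**Figure D3:**
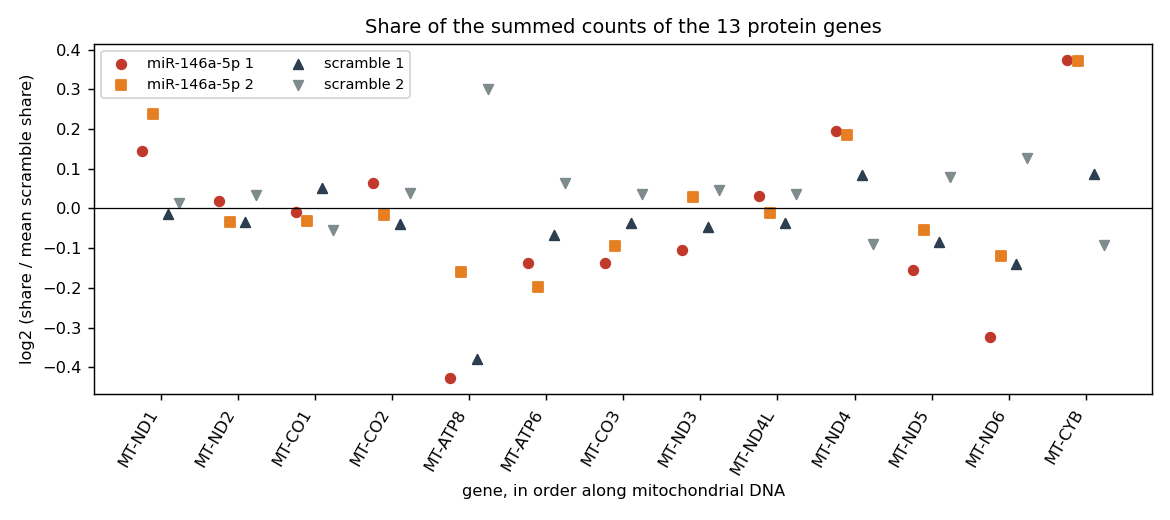
Share of each gene in the summed counts of the 13 protein genes, as log2 of the share over the mean scramble share, in each library (points). The 2 miR-146a-5p libraries coincide for MT-CYB at 5.33% and 5.32%, above both scramble libraries at 4.37% and 3.86%, and the 2 scramble libraries lie apart for MT-ATP8.

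Levels can be set against each other between genes only per length, and the TPM order was nearly the same in both groups. MT-CO2 was at 9859 ± 517 TPM and MT-CO1 at 8896 ± 216 TPM in the miR-146a-5p libraries, against 11686 ± 164 and 11096 ± 733 TPM in the scramble libraries (SD, n = 2 each). At the low end MT-ND6 was at 1483 ± 129 TPM with miR-146a-5p and 2048 ± 123 TPM with scramble. MT-CYB and MT-ND1 next to it, at 2179 ± 29.9 and 2059 ± 60.6 TPM with miR-146a-5p and 2055 ± 250 and 2182 ± 58.0 TPM with scramble, changed places with MT-CYB the higher in the miR-146a-5p libraries, and within the scramble group they did not differ beyond their spread. MT-ND2 and MT-ND4 also changed places, with MT-ND4 the higher in the miR-146a-5p libraries. They were at 2874 ± 108 and 3219 ± 6.86 TPM with miR-146a-5p and 3513 ± 10.5 and 3437 ± 416 TPM with scramble. Within the scramble group these too did not differ beyond their spread. MT-ATP8 ranked first in both groups, with the conversion described above. On the TPM scale 10 of the 13 were lower in both miR-146a-5p libraries than in both scramble libraries, a pattern of 19.1% of tested genes, and besides MT-CYB the groups now overlapped for MT-ND4 and MT-ND4L. The sum of the 13 was 72801 and 73900 TPM with miR-146a-5p, against 90948 and 86183 TPM with scramble, a log2 ratio of -0.27. The rRNA sum was 3270 and 3932 TPM with miR-146a-5p, against 4415 and 3733 TPM with scramble. Its groups overlapped on this scale (exact permutation p = 0.667).

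**Figure D4:**
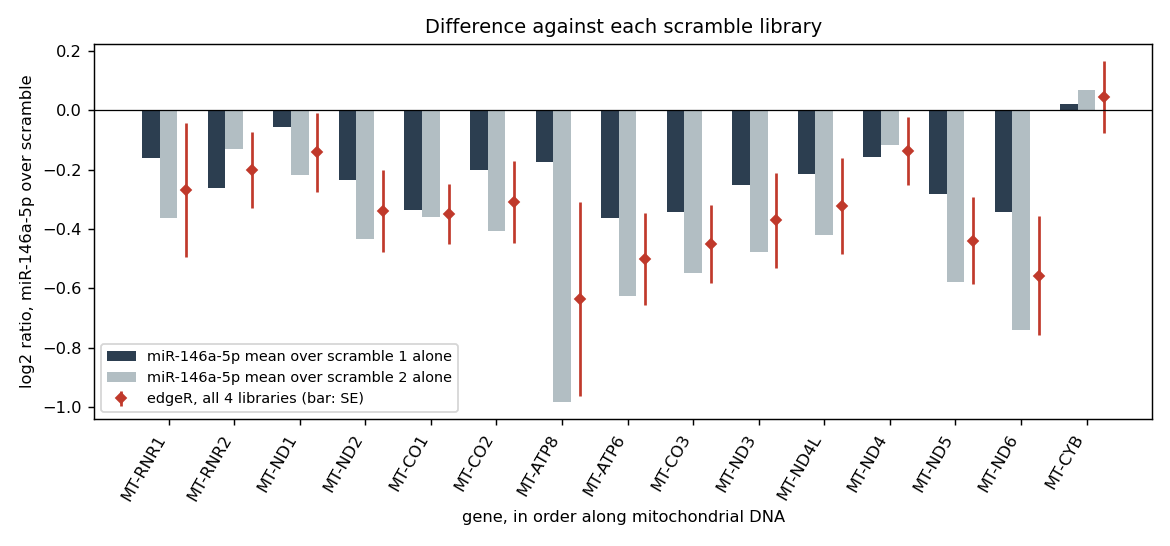
Log2 ratio of miR-146a-5p over scramble for the 13 protein genes and 2 rRNAs, against each scramble library alone (bars, in CPM) and from edgeR with all 4 libraries (diamonds, with SE). The bars against scramble replicate 2 reach -0.98 for MT-ATP8, where those against scramble replicate 1 reach -0.17, and MT-CYB alone has bars above 0.

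The rRNAs are the most abundant mitochondrial RNAs in cells, and their counts here depend on how the libraries were made. MT-RNR1 (ENSG00000211459, chrM:648-1601), the small-subunit rRNA, had 436 and 621 CPM in the miR-146a-5p libraries, against 592 and 681 CPM in the scramble libraries. Its groups overlapped, and the log2 fold change was -0.27 ± 0.23 (SE; edgeR adjusted p = 0.9703). The log2 ratio was -0.16 to scramble replicate 1 and -0.36 to scramble replicate 2. MT-RNR2 (ENSG00000210082, chrM:1671-3229), the large-subunit rRNA, had 2750 and 3071 CPM with miR-146a-5p, against 3493 and 3185 CPM with scramble. The groups did not overlap in CPM, but the nearest libraries of the 2 groups were closer to each other than either pair was (log2 fold change -0.20 ± 0.13 SE, edgeR adjusted p = 0.9703). In TPM they overlapped, at 2518 and 2847 with miR-146a-5p and 3346 and 2671 with scramble. For every 100 counts of MT-RNR2 there were 15.9 and 20.2 of MT-RNR1 with miR-146a-5p and 16.9 and 21.4 with scramble.

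The tRNAs had few counts. Their summed counts were 116 and 135 with miR-146a-5p, against 144 and 389 with scramble, and the highest was scramble replicate 2. Scaled to the library totals they were 5.38 and 6.67 CPM with miR-146a-5p and 6.41 and 17.1 CPM with scramble. On that scale the groups overlapped (exact permutation p = 0.667). Of the 22 tRNAs, 10 had 0 counts in every library, 12 had a count in at least 1 library and 2 passed the filter for testing, MT-TS1 and MT-TA. They are 59 to 75 bases long, and the authors list 21 of them at 0 TPM whatever their count, and these counts say nothing of the amount of tRNA in the cell. The 8 tRNAs read from the light strand held 112, 135, 143 and 383 counts in miR-146a-5p replicates 1 and 2 and scramble replicates 1 and 2, and the 14 heavy-strand tRNAs held 4, 0, 1 and 6. In CPM the light-strand sum was 5.19 and 6.67 with miR-146a-5p and 6.37 and 16.8 with scramble, so its groups overlapped.

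The tested tRNAs were MT-TS1, the serine tRNA next to MT-CO1 (chrM:7446-7514, minus strand), and MT-TA, the alanine tRNA between MT-ND2 and MT-CO1 (chrM:5587-5655, minus strand). They are shown because they were the tRNAs with enough counts to test.
MT-TS1: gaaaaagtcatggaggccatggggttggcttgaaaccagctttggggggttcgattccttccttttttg
MT-TA: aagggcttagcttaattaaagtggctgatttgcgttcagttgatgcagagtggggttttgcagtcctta
MT-TS1 had 81.9 and 98.3 estimated counts in the miR-146a-5p libraries, against 121 and 313 in the scramble libraries. It was lower in both miR-146a-5p libraries, with a log2 fold change of -1.15 ± 0.53 (SE; edgeR adjusted p = 0.9703), of which -0.32 remained against scramble replicate 1 alone. Against scramble replicate 2 alone the log2 ratio was -1.67. MT-TS1 begins at the base after the end of MT-CO1 on the opposite strand, and the MT-CO1 transcript is known to run on across it, so without strand the counts of the gene pair cannot be told apart there. MT-TA had 14 and 25 counts with miR-146a-5p, against 11 and 40 with scramble, and its groups overlapped.

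A transcript with a match to the microRNA's seed can be repressed directly, and the mitochondrial transcripts were searched for such matches in GENCODE release 29 on their own strand. The 8-mer AGTTCTCA, the 7-mer AGTTCTC and the 7-mer GTTCTCA, which contain each other in part, were found in 0 of the 37. Among 62381 windows of 1000 bases from nuclear protein-coding transcripts, 2.19%, 6.95% and 6.79% held these 3 motifs. Most of the 37 genes are shorter than such a window, the tRNAs at 59 to 75 bases, so these shares are not a background matched in length. The 6-mer GTTCTC, held by 20.4% of such windows, occurred in MT-ND4 alone (chrM:11914-11919, plus strand), printed here with 10 bases on each side and the match in capitals, tagtaaccacGTTCTCctgatcaaat. MT-ND4 was among the protein genes with the smallest difference, at a log2 fold change of -0.14 ± 0.11 (SE). On the opposite strand AGTTCTC occurred in MT-ND4 and GTTCTCA in MT-ATP8. A match is a description of these letters and not a binding site.

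Nuclear DNA holds copies of mitochondrial genes that can take up their reads. Of 407 such copies in the table, 5 passed the filter, and 0 of the 5 were called (median log2 fold change -0.55, against -0.0014 over all tested genes). MTATP6P1 on chromosome 1, 98.5% identical to MT-ATP6 with 10 of 681 bases different, had 121 and 119 CPM with miR-146a-5p, against 152 and 229 CPM with scramble, 9.27% to 11.8% of the MT-ATP6 counts of each library. Summed with its copy, MT-ATP6 had a log2 ratio of -0.51. MTRNR2L1, 89.0% identical to MT-RNR2, had 13.97 and 17.2 CPM with miR-146a-5p, against 21.0 and 21.4 CPM with scramble. MTCO1P12, named for its likeness of 98.7% to MT-CO1 with its values already seen, had 63.0 and 66.7 CPM with miR-146a-5p, against 86.2 and 80.6 CPM with scramble. MTRNR2L1, MTND6P3 and MTND2P28 held 1.08% or less of the counts of MT-RNR2, MT-ND6 and MT-ND2 in any library. The estimated counts of these copies may hold reads of mitochondrial origin.

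The nuclear genes that run mitochondrial gene expression were read as lists, and no list held a called gene. Of the 22 genes of mitochondrial DNA transcription and replication, 22 were tested, 0 were called by edgeR and 0 by DESeq2, and their median log2 fold change was 0.04. TOP1MT, the mitochondrial topoisomerase, had 56.0 and 56.9 CPM with miR-146a-5p, against 61.6 and 88.3 CPM with scramble. PRIMPOL, a primase-polymerase, had 16.4 and 20.6 CPM with miR-146a-5p, against 15.8 and 6.32 CPM with scramble, and both genes owed most of their difference to scramble replicate 2. Of 37 symbols for processing, modification and decay of mitochondrial RNA, 35 were in the table and tested, and 0 were called by either tool, with a median of -0.01. PRORP, the nuclease that cuts the 5′ ends of mitochondrial tRNAs out of the precursors, had 34.0 and 32.9 CPM with miR-146a-5p, against 25.9 and 23.3 CPM with scramble (log2 fold change 0.44 ± 0.20 SE, edgeR adjusted p = 0.9703). PTCD1, a pentatricopeptide-repeat protein of mitochondrial RNA metabolism, had 12.7 and 12.9 CPM with miR-146a-5p, against 15.99 and 17.9 CPM with scramble.

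Of 16 regulators of mitochondrial biogenesis 15 were tested and 0 were called by either tool, with a median of 0.18. PPARGC1B, a coactivator of genes for mitochondrial function, had 2.97 and 3.89 CPM with miR-146a-5p, against 6.39 and 7.46 CPM with scramble (log2 fold change -1.01 ± 0.28 SE, edgeR adjusted p = 0.9703, unadjusted p = 0.0194). Its relative PPRC1 had 127 and 138 CPM with miR-146a-5p, against 153 and 190 CPM with scramble. Both coactivators, named for the smallest edgeR p of the list, were lower in both miR-146a-5p libraries. In all, 4 of the 15 were lower in both and 2 were higher in both, where 18.0% of all tested genes were in each direction. The list as a whole turned with the scramble library, with a median of -0.15 to replicate 1 and 0.14 to replicate 2.

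Of 16 symbols of mitochondrial translation factors 15 were in the table and tested, and 0 were called by either tool (median -0.10). TUFM, the elongation factor that brings tRNAs to the ribosome, had 195 and 187 CPM with miR-146a-5p, against 214 and 310 CPM with scramble, and the initiation factor MTIF3 had 15.8 and 18.6 CPM, against 14.4 and 13.2 CPM. The 78 mitochondrial ribosomal protein genes were all tested with 0 called by either tool and a median of -0.09, and 54 of them had a negative log2 fold change, as had 7425 of all 14810 tested genes. Against single scramble libraries it was 0.08 for replicate 1 and -0.23 for replicate 2. MRPL33 had 45.5 and 48.9 CPM with miR-146a-5p, against 23.003 and 25.5 CPM with scramble, the smallest p of the list (log2 fold change 0.96 ± 0.20 SE, edgeR adjusted p = 0.9703, DESeq2 adjusted p = 0.403). MRPS12 had 3.63 and 3.08 CPM with miR-146a-5p, against 4.48 and 10.1 CPM with scramble. Whether the 13 differ from these lists was not tested.

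**Figure D5:**
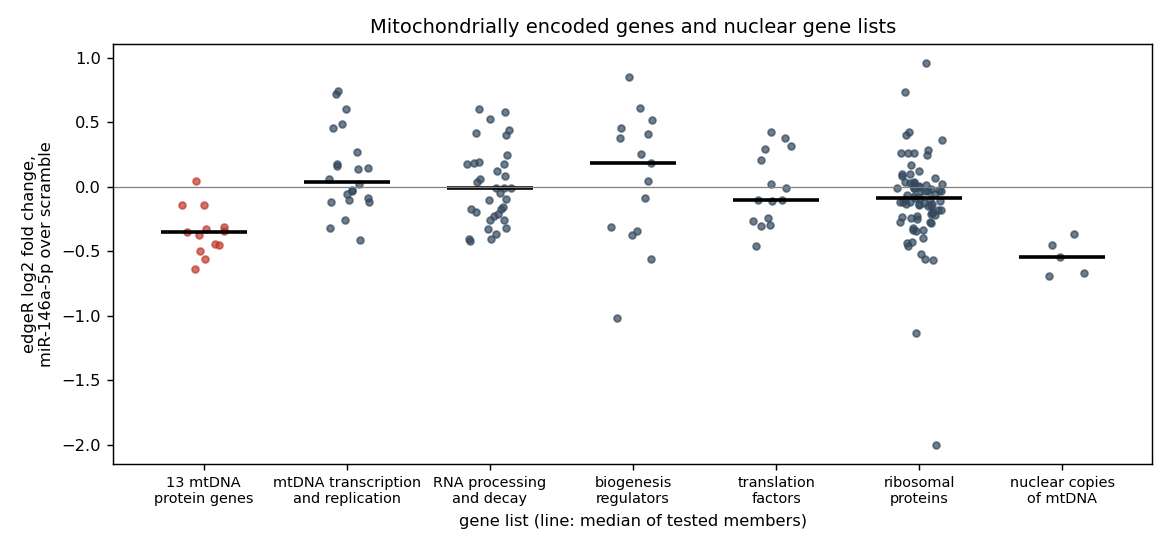
edgeR log2 fold change of each tested gene (points) and list medians (lines) for the 13 mitochondrially encoded protein genes, 5 lists of nuclear genes that serve mitochondrial gene expression, and the nuclear copies of mitochondrial DNA. The medians are -0.35 for the 13 genes, between -0.10 and 0.18 for the 5 lists, and -0.55 for the 5 tested copies.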

How the data were processed

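The authors deposited 1 table with an estimated count per gene and library and TPM per library. The fold change in that table, a ratio with scramble as denominator, and its log2 value were deposited by the authors. Raw and adjusted p-value columns were likewise made by the authors with DESeq2, per the file headers, and entered no test. Tools named, with no role, in the submitters' processing notes are HTSeq 0.6.1, HISAT2 2.0.1, cutadapt 1.9.1 and DESeq2, with build hg19, and no annotation release is given. Of the values of genes counted in all libraries, 34.3% were not whole (tolerance 0.005), and which tool gave fractional values is unknown here, so overlapping or near-identical genes carry added uncertainty.

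Estimated counts were rounded and tested with edgeR 4.0.16 (R 4.3.3; quasi-likelihood, TMM, filterByExpr with minimum count 10 and total 15, two-sided, Benjamini-Hochberg over 14810 genes, threshold 0.05). SEs were derived from the F statistic. DESeq2 1.42.0, limma-voom (limma 3.58.1), other scalings, no filter, blocks and leaving out each library were alternatives. CPM used unrounded counts over each column total. Log2 CPM for the correlations used a prior count of 2. Sums and shares were tested by exact two-sided permutation (SciPy 1.17.1).

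Names matched 37 of 37 genes of GENCODE release 29 (GRCh38), with equal lengths, and coordinates are from it, 1-based. The deposited build is hg19, and none of its coordinates are used. Named nuclear genes are the 2 with the smallest edgeR p per list. Members and lists were chosen with earlier results of these data known. Replicate numbers were not taken to pair libraries, because they are not said to mark a culture, batch or day. Deviations of same-numbered libraries correlated at -0.15, which with 2 libraries a group cannot decide on a pairing. Counts of each pair differed beyond sampling noise (chi-square per degree of freedom 6.52 for miR-146a-5p, 161 for scramble).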

Additional observations from a re-analysis of the deposited data

How the results depend on the processing

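The number of genes called over all genes was 0 with edgeR, 52 with DESeq2, 5 with the replicate number as a block and 8 to 8421 with each library left out in turn. Of the 13 mitochondrial protein genes, 0 were called by edgeR, by DESeq2 and with the block, and 0 to 11 with each library left out. Over all nuclear lists 0 to 120 members were called with each library left out, and 0 in every other setting run. The replicate block changed no call of a mitochondrial gene. A crossed pairing, added after the data were seen, called 0 genes. The remaining settings (limma-voom, DESeq2 size factors in edgeR, scaling without mitochondrial genes, no filter on low counts) called 0 genes. The log2 ratio of the protein-gene sum lay between -0.39 and -0.26 over every denominator, TPM and left-out library, that of the rRNAs between -0.32 and -0.11, and that of the tRNAs between -1.50 and -0.09, the last without scramble replicate 2. The log2 fold change of MT-TA ran from -0.90 to 0.93 with each library left out, reversed to 0.14 without miR-146a-5p replicate 1 and to 0.93 without scramble replicate 2, and the cause was not tested. With 2 libraries a group, of which scramble replicate 2 stood apart, differences of the size seen here were not called by any test of all 4 libraries, and the tRNA counts are too low to read a difference from.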
